A study of Homo sapiens with 8 samples.

Results

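The genes described here are 44 genes of the DNA damage response and of DNA repair, chosen by name, and the question was which of their transcripts carried peaks of N6-methyladenosine (m6A) in 2 deposited peak lists. A peak belonged to a gene when the list named that gene for it. Of the 44 genes, 29 had a peak in both lists, 5 in the control list only, 0 in the DF2 siRNA list only and 10 in neither. The lists together named 10506 genes. All cells were U2OS, a human osteosarcoma line, and all RNA was taken from the cytoplasm and fragmented. The control group and the group with siRNA against YTHDF2 (DF2) each gave 2 input libraries and 2 libraries immunoprecipitated with an antibody against m6A. The labels call the knock-down libraries DF2 siRNA #1 and DF2 siRNA #2 without saying whether these are different siRNAs, and nothing says that libraries came from separate cultures. Each list belongs to both immunoprecipitates of its condition, so there was no value per replicate, no difference between the lists could be tested, and the depth of the libraries is unknown. All comparisons below are descriptions of 2 lists.

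m6A is a methyl mark on adenosine within mRNA, laid down mostly in the sequence context of a purine followed by AC, and it is common near stop codons, in 3′ UTRs and in long internal exons. YTHDF2 binds m6A in the cytoplasm and brings the bound mRNA to deadenylation and decay. The proteins encoded by the 44 genes sense broken or stalled DNA, signal through checkpoint kinases, and repair the lesion by homologous recombination, end joining, excision, crosslink repair or bypass synthesis. Several of these genes, such as BRCA1, BRCA2 and POLQ, are known for a very long internal coding exon.

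The control list held 15730 peaks and the DF2 siRNA list 13219. Most peaks had a summed exonic width that was a multiple of 200 nt (87.2% in the control list, 90.9% in the other). Each peak comes with a fold enrichment, a score and a −log10 value, all of them the authors' own. The −log10 value is headed p-value for control and FDR for DF2 siRNA. These values place a peak within its own list. Values of both lists stand side by side below, but whether a gap between them is a change in m6A was not tested. The median fold enrichment over all peaks was 20.8 in the control list and 17.7 in the DF2 siRNA list, and the median score was 143 and 74. YTHDF2 itself had 1 peak in each list, which does not measure its mRNA level. Of 7 osteoblast and mesenchymal markers, RUNX2 and COL1A1 had a peak in both lists. Of 3 epithelial markers none had a peak. A peak needs both the RNA and its methylation, so a missing marker does not show that the gene is silent.

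Repair transcripts carried m6A peaks often, and most that did so in control cells did so in DF2 siRNA cells too. In both lists were 65.9% of the 44 genes, against 31.6% of RefSeq protein-coding gene symbols. In neither list were 22.7%, against 60.4%. Expression was not matched in this comparison, and peaks are found only in RNA that the cells hold. Control-only genes made up 11.4% of the 44, against 5.62% of protein-coding symbols, and none of the 44 was in DF2 siRNA only, against 2.34%. Among the 34 genes with a control peak, 85.3% also had a DF2 siRNA peak, beside 79.8% of all 9901 named genes of the control list. All 29 genes with a DF2 siRNA peak had a control peak, as did 92.9% of all named genes of that list. Over the named genes of either list, 75.2% were in both. Control only held 19% of them, and DF2 siRNA only held 5.76%. The genes without a peak in either list were ATM, CHEK2, FANCD2, LIG1, MRE11, PARP1, RECQL4, RPA2, XRCC1 and XRCC5. MRE11 was also looked for under its older name MRE11A. These counts depend on weak peaks. With only peaks at or above the median fold enrichment of their list, 16 of the 44 genes were in both lists (36.4%, beside 19.7% of protein-coding symbols), 9 in control only and 19 in neither (43.2%, beside 72.8%). Of the 25 genes then left in control, 64% were in DF2 siRNA too, beside 75.2% of all 6098 genes, so that under this setting the share lay below the one over all genes. All 16 genes in DF2 siRNA were in control, beside 89.2% of all. With at least 2 peaks per gene, 13 were in both (29.5%, beside 11% of protein-coding symbols), 6 in control only, 4 in DF2 siRNA only and 21 in neither (47.7%, beside 80.9%). Then 68.4% of the 19 genes in control were in DF2 siRNA too, beside 65.4% of all, and 76.5% of the 17 in DF2 siRNA were in control, beside 79.3%.

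**Figure D1:**
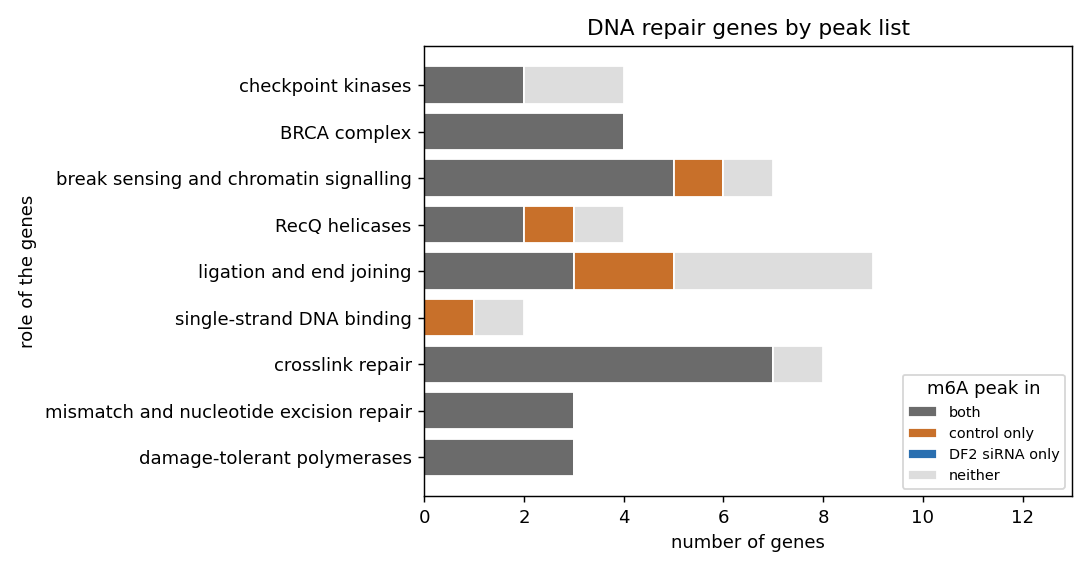
Number of genes (x axis) in each role group (y axis) with an m6A peak in both lists, in control only, in DF2 siRNA only or in neither. All 4 BRCA complex genes, all 3 mismatch and nucleotide excision genes and all 3 damage-tolerant polymerases had a peak in both lists, and 4 of 9 ligation and end joining genes had none, and no gene was in DF2 siRNA only.

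The 2 lists differed for these genes in how much of each transcript the peaks covered. Fold enrichment differed too: by the best peak of each gene in both lists, the median was 45.3 in control and 23.3 in DF2 siRNA. Over all genes in both lists these medians were 37.4 and 25.1. In the 29 genes found in both, peaks covered fewer exonic nucleotides in DF2 siRNA cells in 25 genes, the same number in 4 (NBN, MDC1, FANCI and XPC) and more in 0. Over all 7904 genes found in both lists, 51.1% had fewer nucleotides and 19.9% had more. Repair transcripts began with wide coverage, a median of 2000 nt per gene in control against 1200 nt over all genes in both. A split on the control value would favour a smaller DF2 siRNA value, so genes were also taken by their mean over both lists, a split chosen after seeing the data. Among genes with a mean of at least 1000 nt, 20 of 22 repair genes (90.9%) had fewer in DF2 siRNA, beside 59.3% of 4322 genes. This subset does not match genes on length, expression or fold enrichment, and whether depth differed between the lists is unknown.

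What the DF2 siRNA peaks did cover lay almost wholly inside the control peaks. The 29 genes had 61727 nt of control peak sequence and 42400 nt of DF2 siRNA peak sequence, of which 41600 nt were shared. That is 67.4% of the control sequence and 98.1% of the DF2 siRNA sequence, with 76.8% and 90.4% over all genes in both lists. In 27 of the 29 genes every DF2 siRNA nucleotide lay in a control peak (93.1%, beside 67.1% of all genes in both). The exceptions were CHEK1 and SLX4. A gene with more nucleotides in DF2 siRNA than in control cannot meet this condition. Such genes were 19.9% of all genes in both lists and 0 of the 29, so this share is not separate from the smaller coverage. By peaks, 47 of 65 control peaks (72.3%, with an exact 95% interval from 59.8 to 82.7%) shared at least 1 base with a DF2 siRNA peak, against 71.9% of all control peaks. Of the 57 DF2 siRNA peaks 55 lay on a control peak (96.5%, interval from 87.9 to 99.6%), against 87.5% of all. Identical blocks in both lists were found for 20 of the 65 control peaks (30.8%), beside 29.5% of all control peaks. These intervals cover counting error only, and peaks of 1 gene are not independent.

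**Figure D2:**
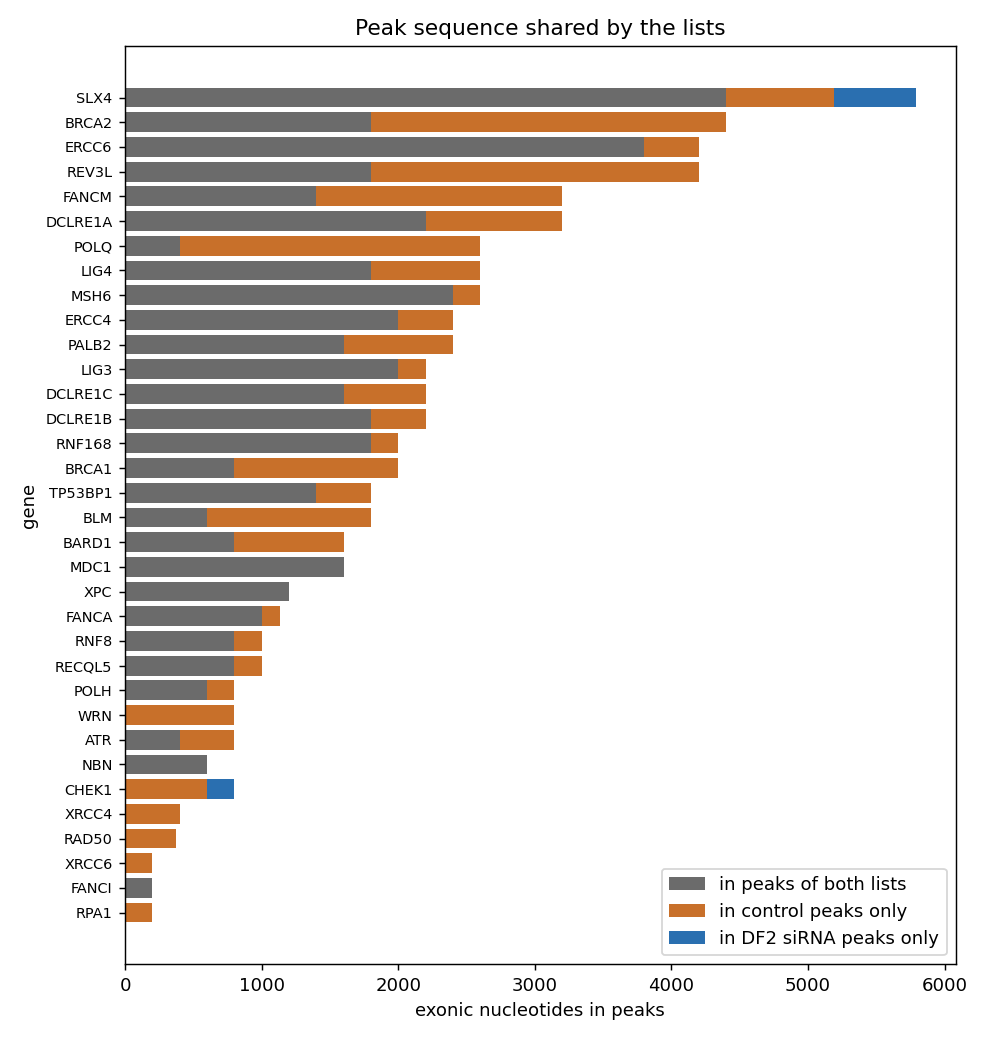
Exonic nucleotides in m6A peaks (x axis) for the 34 genes with a control peak (y axis), split into sequence shared by both lists, in control peaks only and in DF2 siRNA peaks only. Sequence in DF2 siRNA peaks only occurs in SLX4 and CHEK1, and MDC1, XPC, NBN and FANCI have the same sequence in both lists.

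Of the checkpoint kinases, ATR and CHEK1 had peaks and ATM and CHEK2 had none. ATR, the kinase that responds to single-stranded DNA at stalled forks, had 1 control peak of 800 nt (fold enrichment 25.9, score 234) and 1 DF2 siRNA peak of 400 nt (12.4, score 40), both with a stop codon label. Both ATR peaks lay within chr3:142562324-142566134 on the minus strand, while the RefSeq gene has its 3′ end at 142449235. CHEK1, the kinase that ATR activates, had 2 control peaks and 1 DF2 siRNA peak that shared no base. The stronger control peak lay at chr11:125625936-125626329 (fold enrichment 12.3, score 51) and the DF2 siRNA peak at chr11:125626530-125626729 (7.195, score 10). All 3 lay at the 5′ end of the gene. The best of them stood at percentile 28.5 of the control list and 10.1 of the DF2 siRNA list. A gene found in both lists with no shared nucleotide made up 1.57% of all genes in both.

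All 4 genes of the BRCA complex had peaks in both lists, and in all 4 the DF2 siRNA peaks covered less sequence. BRCA2, a mediator of homologous recombination, had 4 peaks in each list that covered 4400 nt in control and 1800 nt in DF2 siRNA. Its strongest control peak (chr13:32332446-32337522) was labelled coding and enriched 80.0-fold, and a peak at the 3′ end of the coding sequence (chr13:32396877-32398993) had a value of 64.2. The strongest DF2 siRNA peak was the one at the 3′ end, with 16.0, so the best peaks of the lists did not overlap. The strongest coding peak of control met 2 narrow DF2 siRNA peaks, with 12.8 and 8.78. PALB2, which joins BRCA1 to BRCA2, had 1 control peak of 2400 nt (fold enrichment 53.7) and 2 DF2 siRNA peaks of 800 nt each within it, the better with 24.4. BARD1, the ubiquitin ligase partner of BRCA1, had 1600 nt in 2 control peaks (best 42.7) and 800 nt in 1 DF2 siRNA peak (15.1). BRCA1 had a control peak of 1400 nt without a break (chr17:43093333-43094732, fold enrichment 18.1) and another of 600 nt, and in DF2 siRNA 1 peak of 800 nt (12.8) inside the wider one. The wider control peak carried the labels coding, 5′ UTR, stop codon and 3′ UTR at once.

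Of the 7 genes that sense breaks and signal on chromatin, RNF168 had the strongest peak of all 44 genes. RNF168, the ubiquitin ligase that marks histone H2A at breaks, had 2 peaks in each list. Its control peak over stop codon and 3′ UTR (chr3:196471730-196472729) was listed with a 118.5-fold enrichment and a score of 3877. The DF2 siRNA peak there spanned 800 nt, with 53.2-fold and a score of 833. Its 5′ peak of 1000 nt had the same blocks in both lists, with 50.1 for control and 54.4 for DF2 siRNA, and so was the better DF2 siRNA peak. RNF8, which acts before RNF168, had 1 peak with a stop codon label in each list (19.2 and 14.7). Both RNF8 peaks ended at chr6:37369935, while the RefSeq gene runs on to 37394734. TP53BP1, which favours end joining at breaks, had 4 control peaks (best 35.2) and 3 DF2 siRNA peaks (best 23.3), and the 3 had the same blocks as control peaks. MDC1, the scaffold that binds phosphorylated H2AX, had 3 peaks with identical intervals in both lists. In MDC1 the coding peak of 800 nt had a control value of 24.7 and a DF2 siRNA value of 37.4, and the neighbouring peak of 400 nt had 30.2 and 24.8. The MDC1 peak labelled 5′ UTR (chr6:30717290-30717689) lay outside the RefSeq gene, which starts at 30717281 on the minus strand. NBN of the MRE11 complex had 1 peak of 600 nt at the same place in both (19.6 and 11.2). RAD50, its partner, had a control peak only, of 371 nt in the 3′ UTR with a score of 5 and 4.48-fold enrichment.

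Among the RecQ helicases, BLM and RECQL5 were in both lists, WRN in control only and RECQL4 in neither. BLM, which dissolves recombination intermediates, had 3 control peaks over 1800 nt and 1 DF2 siRNA peak over 600 nt. Its coding peak at chr15:90749380-90751898 was 100.3-fold enriched with a score of 751, at percentile 95.3 of the control list. The DF2 siRNA peak on it had 22.6 and a score of 92, at percentile 60.0. RECQL5 had its best peak over the same 800 nt in both lists, at 49.8 and 39.8, and a second control peak of 200 nt with 4.83. WRN, a helicase with exonuclease activity, had 1 control peak of 800 nt in coding sequence (chr8:31067080-31085166, fold enrichment 30.1, score 150, −log10 p 7.98). WRN was the only control-only gene of the 44 above the median fold enrichment of the control list.

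Of the 9 ligation and end joining genes, LIG3 and LIG4 and the nuclease gene DCLRE1C (Artemis) had peaks in both lists, and LIG1, XRCC1, XRCC5 and PARP1 had none under their names. In both lists a coding peak of 200 nt (chr19:43560990-43593036) named for L34079.2 reached into the XRCC1 gene on its strand. Its fold enrichments were 13.6 (control) and 11.3 (DF2 siRNA), and whether its reads came from XRCC1 RNA cannot be told. XRCC4, the partner of LIG4, and XRCC6 (Ku70) had weak control peaks only. LIG4 had 1 control peak of 2600 nt (chr13:108208826-108214666), 2471 nt of it without a break, with a fold enrichment of 97.9. In DF2 siRNA it had 2 peaks of 1400 and 400 nt within that sequence, with 25.5 and 15.7. DCLRE1C showed the same form, 1 control peak of 2200 nt (45.1) and 2 DF2 siRNA peaks of 800 nt each inside it (17.6 and 12.1). LIG3, the ligase of single-strand break repair, had 3 peaks in each list, with best values of 60.7 and 47.4, and the same 1200 nt of 3′ UTR sequence among them. XRCC4 had 8.87 (score 23) over 400 nt at its 5′ end, and XRCC6 had 12.8 (score 108) over 200 nt labelled 5′ UTR (chr22:41621119-41621318). Of these, 24 nt lay past the RefSeq start of XRCC6 at 41621295.

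Peaks that reached the RefSeq start of a transcript were present in 9 of the 44 genes, and the sequence there was searched for the cores GGAC and AGAC, which fit the context of m6A, on the transcribed strand in the leading 50 bases. The 9 genes (XPC, RNF168, XRCC4, DCLRE1A, CHEK1, FANCM, SLX4, LIG3 and XRCC6) gave 10 start windows, of which 1 held GGAC (10%) and 2 held AGAC (20%). Of all 35116 RefSeq start windows 18.9% held GGAC and 16.5% held AGAC. The sites of LIG3 (chr17:34980512-34980541, plus strand) and XPC (chr3:14178563-14178592, minus strand), from RefSeq GRCh38.p14, are shown because both lie wholly in a peak of both lists, with every GGAC or AGAC in capitals. LIG3 holds both cores and XPC holds AGAC.
LIG3: gctctaGGACccggatttaaagAGACaggc
XPC: gtggaatttgcccAGACaagcaacatggct
A match to the core is not a methylated site, and peaks of this width do not resolve single adenosines. The LIG3 peak over this site had the same blocks in both lists, with fold enrichments of 19.6 (control) and 13.2 (DF2 siRNA), and the XPC peak had 14.9 and 10.6.

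Of the 2 replication protein A genes, whose products coat single-stranded DNA, RPA2 had no peak and RPA1 had 1 in control only. The RPA1 peak was 200 nt of 3′ UTR (chr17:1897191-1897390) with a score of 634 and 10.4-fold enrichment. Its −log10 p of 1.45 was close to the minimum of the list, 1.30. The 5 control-only genes had a median fold enrichment of 10.4, beside 45.3 for the control peaks of the 29 genes in both, each by its best peak. Over all genes these medians were 10.6 and 37.4. For RAD50, RPA1, XRCC4 and XRCC6 the control −log10 p lay between 1.45 and 2.24, near that minimum, and for WRN it was 7.98.

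Crosslink repair was the 1 group with more DF2 siRNA peaks (17) than control peaks (15). Only DCLRE1A of this group had more peaks in DF2 siRNA, 4 inside 1 control peak. In no gene of the group did the DF2 siRNA peaks cover more sequence than the control peaks. SLX4, the scaffold for structure-specific nucleases, had the widest coverage of the 44 genes, with 5 peaks in each list that covered 5191 and 5000 nt. Its best control peak was at the 5′ end (45.5) and its best DF2 siRNA peak at the stop codon (34.1), and at both places the lists had a peak with the same blocks. DCLRE1B (Apollo), a nuclease of telomeres and crosslinks, had its stop codon peak at 58.1 (control) and 65.0 (DF2 siRNA). FANCM, the helicase that recognises stalled forks, had 3 control peaks over 3200 nt (best 45.3) and 2 DF2 siRNA peaks over 1400 nt (best 15.6). Its control peak of 1400 nt in coding sequence had no counterpart. DCLRE1A had 1 control peak of 3200 nt (chr10:113847311-113854383, 27.6) and 4 DF2 siRNA peaks inside it that together covered 2200 nt. ERCC4 (XPF) had 2 peaks in each list, with best values of 33.5 and 34.8 at the stop codon. FANCI had 1 peak of 200 nt without a feature label, the same in both (19.0 and 8.53). FANCA had 1 stop codon and 3′ UTR peak per list, with a control value of 35.9 and a DF2 siRNA value of 66.1, the highest of the 44 genes in that list. In each list 800 nt of the FANCA peak coincided with a peak of ZNF276 on the opposite strand. Whether reads were counted by strand is not stated, so reads of FANCA and ZNF276 cannot be told apart there.

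The 3 mismatch and nucleotide excision genes had nearly the same peak sequence in both lists. MSH6, which recognises mismatches, had 2 peaks in each list over 2600 and 2400 nt, with best values of 72.8 and 58.5 at the same blocks. XPC, the damage sensor of excision repair, had 2 peaks with identical intervals (best 53.2 and 46.0). ERCC6 (CSB), which acts when RNA polymerase stalls, had 3 peaks in each list. Its best peak (chr10:49515210-49524720) had a control value of 71.1 and a DF2 siRNA value of 61.5. In ERCC6 1782 nt of that peak were also listed as a peak of PGBD3 on the same strand in both lists, so reads there cannot be assigned to 1 of these genes.

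The 3 damage-tolerant polymerases had peaks in both lists, and 2 of them showed large differences in covered sequence. POLQ, the polymerase of microhomology-mediated end joining, had 1 control peak of 2600 nt of coding sequence without a break (chr3:121487681-121490280) listed at 49.3-fold with a score of 164. In DF2 siRNA 400 nt in the interior of that stretch were listed, with 8.56 and a score of 18. REV3L, the catalytic part of polymerase zeta, had 4200 nt in 2 control peaks (52.0 and 20.3) and 1800 nt in 2 DF2 siRNA peaks (28.1 and 10.3). The control peak of REV3L of 1600 nt had no counterpart in DF2 siRNA. POLH, which bypasses ultraviolet lesions, kept its peak of 600 nt (23.4 and 15.1) and had another of 200 nt in control only.

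**Figure D3:**
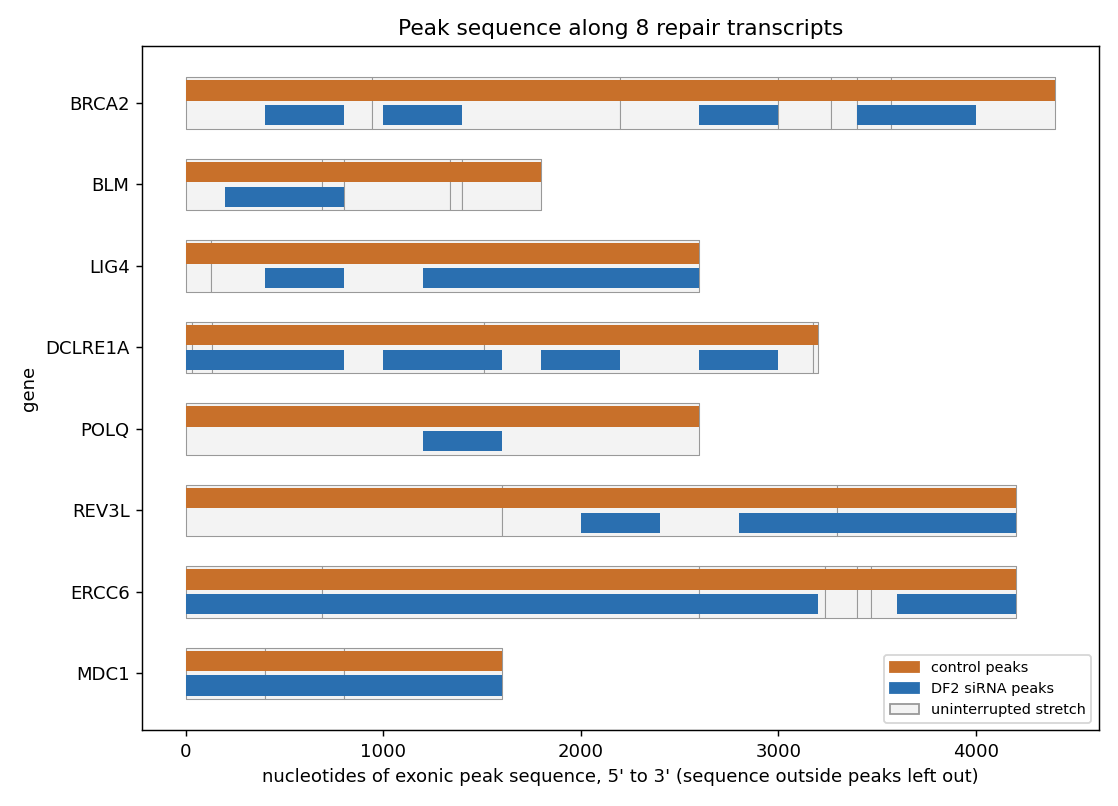
Peak sequence of 8 genes, laid end to end from 5′ to 3′ (x axis, nucleotides), with control peaks above and DF2 siRNA peaks below; boxes are stretches without an intron or a gap between peaks. The control peak of POLQ covers 2600 nt and its DF2 siRNA peak 400 nt inside it, DCLRE1A and LIG4 show several DF2 siRNA peaks inside 1 control peak, and MDC1 is the same in both; the 8 genes were picked after their values were seen.

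In 6 genes (BRCA2, PALB2, LIG4, DCLRE1C, DCLRE1A and REV3L) a control peak met 2 or more DF2 siRNA peaks, 20.7% of the 29 genes, beside 6.21% of all genes in both lists. These shares do not match genes on width, and control coverage was wider in the 29 genes (median 2000 nt, against 1200 nt). The reverse, a DF2 siRNA peak on several control peaks of its gene, was found in 0 of the 29, beside 3.19%. For this reason the number of peaks per gene is a poor measure here. It was lower in DF2 siRNA in 8 genes, equal in 17 and higher in 4 (over all genes in both lists, 20.1% were lower and 12.4% higher), and in each of those 4 (PALB2, LIG4, DCLRE1C and DCLRE1A) the covered sequence was smaller.

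Within their own lists the peaks of repair genes stood above the middle for control and below it for DF2 siRNA. The 65 control peaks had a median fold enrichment of 25.9 (percentile 57.9 of the list) and a median score of 256 (percentile 61.9). The 57 DF2 siRNA peaks had a median of 15.7 (percentile 44.3) and a median score of 62 (percentile 46.0). Splitting 1 wide peak into several adds weaker peaks, so the best peak of each gene was also ranked among the 7904 genes in both lists. By this rank the 29 genes had a median percentile of 58.5 in control and 47.0 in DF2 siRNA. Taken gene by gene, the difference (DF2 siRNA minus control) was small at the middle, with a median of −1.54 (quartiles −17.5 and 4.72). Over all genes in both lists its median was 1.41 (quartiles −13.5 and 14.6). The best peaks of the 2 lists shared a base in 23 of the 29 genes (79.3%, beside 89.5%), the others being CHEK1, BRCA2, MDC1, RNF168, FANCM and SLX4. The rank was lower in DF2 siRNA in 17 genes and higher in 12 (58.6% lower, beside 46.3% of all genes in both). The widest gaps with a lower rank in DF2 siRNA were those of POLQ (62.4 to 9.35), BRCA2 (83.6 to 31.2), BLM (90.9 to 45.6) and LIG4 (90.3 to 50.8), and the widest in the other direction those of FANCA (48.2 to 87.0) and MDC1 (40.4 to 67.1). MSH6, XPC, LIG3, ERCC6 and RECQL5 were among the genes whose ranks lay within 10 percentiles of each other.

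**Figure D4:**
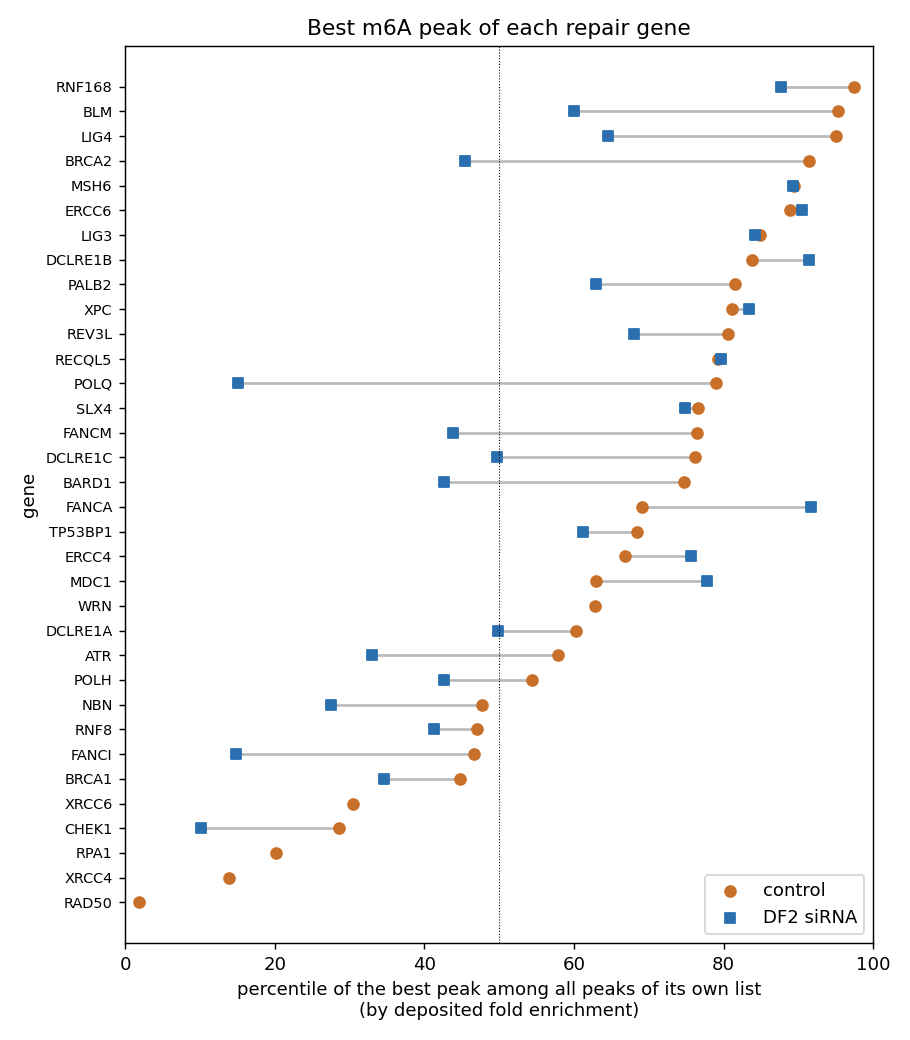
Percentile of the best peak of each of the 34 genes (y axis) among all peaks of its own list by deposited fold enrichment (x axis), for control (circles) and DF2 siRNA (squares). RNF168, BLM and LIG4 lead in control, FANCA, DCLRE1B and ERCC6 lead in DF2 siRNA, and WRN, XRCC6, RPA1, XRCC4 and RAD50 have no DF2 siRNA point.

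Taken over all widths, the peaks of repair genes had a larger share in coding sequence than all peaks of their lists, but among narrow control peaks the share was not larger. Each peak was given 1 label, a stop codon taking precedence over a 3′ UTR, this over coding sequence and this over a 5′ UTR. Then 27.7% of the 65 control peaks (exact 95% interval from 17.3 to 40.2%) were coding, against 15.5% of all control peaks. In DF2 siRNA 42.1% of 57 peaks (29.1 to 55.9%) were coding, against 19% of all. In peaks of at most 400 nt, 2 of 20 control peaks (10%, 1.23 to 31.7%) were coding, against 16.9% of all such peaks, and 8 of 20 in DF2 siRNA (40%, 19.1 to 63.9%), against 21.3%. Counting every label of a peak, 81.5% of control and 87.7% of DF2 siRNA peaks were coding, against 61.7% and 66.4% of all. Peaks with the coding label alone made up 20% in control (11.1 to 31.8%) and 33.3% in DF2 siRNA (21.4 to 47.1%), against 7.59% and 9.49%. A stop codon label was carried by 35.4% (23.9 to 48.2%) of the control peaks and by 26.3% (15.5 to 39.7%) of the DF2 siRNA peaks, against 42.7% and 43.7% of all peaks. In DF2 siRNA peaks of at most 400 nt it was 15% (3.21 to 37.9%), against 24.9%. Such a label did not always mean the 3′ end of the coding sequence. The LIG3 peak at chr17:34980494-34980710 carried it although it lay over the RefSeq start of the gene at 34980512. These shares therefore count labels, not places along the transcript. No peak of these genes was labelled non-coding RNA, while 13.5% of all control peaks were. The lists hold non-coding genes and the 44 genes all code for protein, which by itself changes the shares. A control peak of a repair gene had a stretch of at least 1000 nt without a break in 19 of 65 cases (29.2%, 18.6 to 41.8%, against 21.4% of all). In DF2 siRNA it was 9 of 57 (15.8%, 7.48 to 27.9%, against 19.6%).

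Of the rest of the repair pathway, 115 further genes in 9 role groups, 69 were in both lists (60%, beside 31.6% of protein-coding symbols), 7 in control only, 4 in DF2 siRNA only and 35 in neither. Of the 76 with a control peak 90.8% also had a DF2 siRNA peak, beside 79.8% of all named genes. In the 69 genes, covered sequence was smaller in DF2 siRNA in 41 (59.4%, beside 51.1% of all genes in both), equal in 19 and larger in 9 (13%, beside 19.9%). The best peak ranked lower in DF2 siRNA in 32 genes and higher in 37 (53.6%, beside 53.7%). Homologous recombination had 15 of 23 genes in both lists, Fanconi and crosslink genes 10 of 13, and base excision and direct reversal 10 of 21. The strongest in control were GEN1, a resolvase of Holliday junctions (fold enrichment 122.7 in control, 18.2 in DF2 siRNA), FANCC (110.2 and 29.6), the helicase BRIP1 (101.3 and 14.6), RMI1, a partner of BLM (100.05 and 17.1), and the bypass polymerase POLI (99.7 and 8.20). These were picked for a high control value, which by itself favours a lower place in the other list. The strongest in DF2 siRNA, added after their values were seen, were H2AX, the histone that is phosphorylated at breaks (92.7 in control, 101.4 in DF2 siRNA), FAAP100 (78.8 and 92.2), the flap nuclease FEN1 (49.1 and 82.0), FANCE (42.5 and 73.1) and the polymerase POLL (42.0 and 71.1). All 5 ranked higher in DF2 siRNA among genes in both lists, as the choice favours. Among the control-only genes were RAD17 (18.0), TIMELESS (13.9), POLK (13.9), EXO1 (12.8), MSH3 (11.2) and FANCG (8.83), all below the control median of 20.8. MPG (12.5), TDG (10.3), RTEL1 (9.71) and MAD2L2 (4.35) were in DF2 siRNA only, all below the median of 17.7.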

How the data were processed

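Per the submitters' processing notes, reads were aligned with HISAT2 to hg38; no source used here names the peak caller, its settings, the annotation or how strand was handled. The authors deposited 1 peak list per condition. Per the file headers, each peak has a fold enrichment, a −log10 value (p-value in control, FDR in DF2 siRNA) and a score, whose meaning is not stated. How these values depend on library depth, which is unknown, is not stated either.

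Block sizes of minus-strand peaks were stored in reverse order, and with this order restored the blocks of all peaks ended at the peak end. Adjacent blocks were joined. Peaks overlapped when at least 1 exonic base was shared on the same strand. Coordinates count from 1. All 44 members were matched to RefSeq (GRCh38.p14), and 6 pathway genes were listed under older names. No test between conditions was possible with 1 list each. Intervals are exact binomial (Clopper-Pearson). The members and gene lists were chosen with earlier results of these data known. Named were genes in 1 list only, the 3 strongest per role group, genes with 3 or more peaks and those whose best peaks do not overlap; other members were added to complete their groups. Some genes that the rule or the marker lists select are not reported here. The overlap procedure was tested on simulated data. Tools were Python 3.11.15 with numpy 2.4.6, pandas 2.3.3, scipy 1.17.1 and matplotlib 3.10.9.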

Additional observations from a re-analysis of the deposited data

How the results depend on the processing

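No paired analysis was possible because each condition has 1 peak list for both libraries, and for the same reason no replicate could be left out. With fold enrichment at or above the list median, 16 of the 44 genes were in both lists, 9 in control only and 19 in neither, and of the pathway genes 35, 18 and 62, with 0 in DF2 siRNA only. Of the genes with a control peak 64% and 66% were then also in DF2 siRNA, beside 75.2% of all. With a −log10 value at least 2 above the list minimum, 9 of the 44 were in control only and 100% of DF2 siRNA peaks overlapped. The headers call that value a p-value in control and an FDR in DF2 siRNA. Its minimum was 1.3 in both lists, so whether the cut is alike in them is unknown. Shares over all genes or peaks are not given for this cut, for equal list lengths or for reciprocal overlap. Counts under these settings are therefore not set against all genes. With equal list lengths by fold enrichment 3 were in control only. With 2 or more peaks per gene, 13 were in both, 4 in DF2 siRNA only and 21 in neither. With equal list lengths by score, chosen after seeing the data, 8 pathway genes were in DF2 siRNA only. At 50% reciprocal overlap, 73.7% of DF2 siRNA peaks overlapped. Counting every label, 81.5% of control and 87.7% of DF2 siRNA peaks were coding, beside 61.7% and 66.4% of all peaks. In peaks of at most 400 nt, 10% of control peaks were coding and 15% of DF2 siRNA peaks carried a stop codon label, beside 16.9% and 24.9% of all such peaks. Of the 115 pathway genes, the −log10 cut left 43 in both lists, 19 in control only, 1 in DF2 siRNA only and 52 in neither. With 2 or more peaks per gene the pathway counts were 23, 11, 4 and 77. The other alternatives stayed within 1.5 times of a count or within the interval of a share. No gene of the 44 was in DF2 siRNA only under any other alternative than that of 2 or more peaks per gene. Unknown depth limits every statement on missing peaks.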
